A study of Mus musculus with 2 samples.

Results

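The 8 genes described here encode transcription factors that mark or shape upper-layer projection neurons of the cerebral cortex. They are Cux1, Cux2, Pou3f1, Pou3f2, Pou3f3, Rorb, Mef2c and Bhlhe22, and every probe set that the platform annotation gives to exactly 1 of them was taken. That rule found 27 of the 34945 probe sets naming a single gene, out of 45101 on the array, and covered 7 of the 18193 genes so named. The other gene, Bhlhe22, a basic helix-loop-helix repressor of postmitotic cortical neurons, is named by none of the probe sets in the annotation used here.

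The study read 2 RNA pools of newborn mouse cortex, each from 3 animals and each on 1 Affymetrix array. The titles of both samples say only brain. The first pool is labelled as a double knockout of MRTF-A and MRTF-B. It carries Mrtfa null alleles (MRTF-A-/-), floxed Mrtfb alleles (MRTF-BF/F) and GFAP-Cre, a Cre transgene under the promoter of GFAP, a filament gene of astrocytes, by the transgene's name. In which cells Cre acted, and whether these include upper-layer neurons, was not tested. This first pool is called the DKO-labelled pool here. The pool labelled control, the control-labelled pool, has the same alleles without Cre (MRTFA-/- with MRTF-BFlox/Flox), so Mrtfa is null by label in both and neither is wild type. Both are labelled postnatal day 0, although 1 field for the DKO-labelled pool states day 1. Pooling hides how the animals differ, and with 1 array a group no test was possible, so each difference below is that of these 2 arrays.

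The cortex is built from the inside out, with the neurons of the upper layers born late and still moving to their places around birth. These late-born neurons send axons mainly to other cortical areas, many of them through the corpus callosum. MRTF-A and MRTF-B bind the transcription factor SRF and carry signals from the actin cytoskeleton to its targets. The comparison therefore asks, on an Mrtfa-null background, how the genes of the upper-layer programme stand in a cortex that also carries GFAP-Cre and floxed Mrtfb. SRF and Mef2c belong to the same MADS-box family of DNA-binding proteins.

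Values are the authors' deposited MAS5 signals, a brightness per probe set in arbitrary units on a linear scale. Differences are the log2 signal of the DKO-labelled pool minus that of the control-labelled pool, after centring. A signal under 178.9, the median of all signals and called the floor here, was treated as not measurable, and a gene counts as measured when a probe set of it reached the floor on at least 1 array. Of the 27 probe sets 23 reached the floor on both arrays, called usable here, and 4 on neither, so all 7 genes with a probe set were measured. A gene's own value is that of its brightest probe set, and the mean ± SD over its probe sets describes how far they differ from each other, not how far animals do. In bulk tissue, fewer cells of a type and less RNA per cell cannot be told apart.

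The targeted genes were read first. Mrtfb had a signal of 2481.8 in the DKO-labelled pool and 3358.9 in the control-labelled pool on its brightest probe set, a difference of -0.44. Its other usable probe set differed by -0.22, and the mean was -0.33 ± 0.15 (SD, 2 probe sets). Mrtfa, null in both pools by label, had 262.4 in the DKO-labelled pool and 601.6 in the control-labelled pool, a difference of -1.20 on 1 probe set. The Mrtfa label is the same in both pools and gives no reason for this difference, whose cause was not tested. The sources used here do not say where the probe set lies relative to the deleted part. Srf differed by -0.31, with 471.1 in the DKO-labelled pool and 582.3 in the control-labelled pool, and Myocd, the remaining family member, was under the floor on both arrays. Defining genes of cortical projection neurons were well above the floor in both pools, among them Tbr1 with 1720.3 in the DKO-labelled pool and 1553.3 in the control-labelled pool and Emx1 with 391.7 in the DKO-labelled pool and 346.9 in the control-labelled pool.

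Most of the upper-layer factors had nearly the same signal in both pools, and Rorb stood highest, at 1.26-fold. None of the 7 measured genes and none of the 23 probe sets differed by 1.5-fold, against a background of 1.14% of the 11636 named genes measured and 1.26% of the 18877 usable single-gene probe sets. By the brightest probe set 6 genes were higher and 1 lower, where 52.9% of all measured genes were higher. That split was 5 higher and 2 lower after quantile normalization or loess centring, and 4 higher and 3 lower by the mean over probe sets. The median over the 7 genes was 0.08, set beside 0.01 over all measured genes. Differences drifted with signal over the whole array, with a median of -0.09 among probe sets near 213 and 0.04 among those near 2020. With the floor at the 75th percentile, 60.2% of 6972 measured genes were higher, with a median of 0.03. Of the factors 5 were then higher and 1 lower. After loess centring, which takes out a trend with signal, the median was 0.04 over the 7 genes and 0.0051 over all measured genes. Of the 23 probe sets 14 were higher and 9 lower, set beside 50.9% higher over all such probe sets, or 12 and 11 after loess centring and 11 and 11 after quantile normalization, which left 22 usable. The largest difference of any probe set was 1.48-fold, on a dim probe set of Pou3f3 that was lower.

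**Figure D1:**
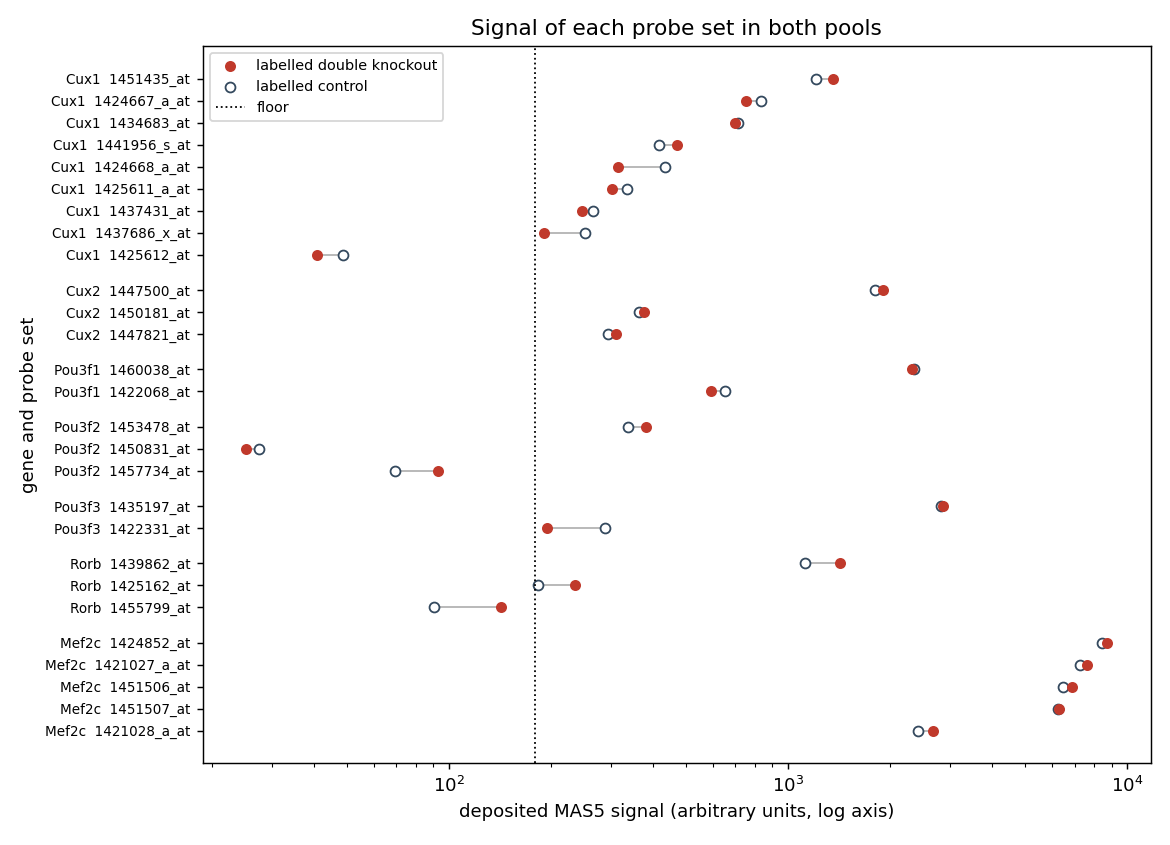
Deposited MAS5 signal (arbitrary units, log axis) of each of the 27 probe sets in the DKO-labelled pool (filled red) and the control-labelled pool (open), grouped by gene, with the floor of 178.9 as a dotted line. The filled points of Rorb lie right of the open ones on all 3 probe sets, those of Mef2c nearly coincide with them, and those of Cux1 fall on both sides.

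Rorb encodes the nuclear receptor RORβ, which marks layer 4, the layer that receives sensory input from the thalamus, and in mice takes part in the grouping of its neurons into barrels. Its brightest probe set, 1439862_at, had a signal of 1423.6 in the DKO-labelled pool and 1123.4 in the control-labelled pool. A dimmer one, 1425162_at, had 235.6 in the DKO-labelled pool and 183.7, just above the floor, in the control-labelled pool. Both were higher in the DKO-labelled pool, by 0.34 and 0.36, and averaged 0.35 ± 0.01 (SD, 2 probe sets). The remaining probe set, 1455799_at, was under the floor on both arrays, with 142.4 in the DKO-labelled pool and 90.6 in the control-labelled pool, and gives no fold. Of all measured genes 8.08% differed by at least as much as the brightest Rorb probe set in either direction and 3.07% were at least as high. Among the brightest tertile of probe sets, to which it belongs, 2.76% differed as much, and among the dimmest tertile 13.7% differed as much as the dimmer one. After quantile normalization the dimmer probe set fell under the floor in the control-labelled pool and the brightest stood at 0.32.

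Rorb is also expressed in sensory nuclei of the thalamus, and 3 of the 5 measured thalamic markers were higher and 2 lower (median 0.03), and by the mean over probe sets 1 was higher and 4 lower (median -0.13). Their summed signal was 3725 in the DKO-labelled pool and 3577 in the control-labelled pool, and the defining thalamic genes Gbx2 and Lhx9 were under the floor on both arrays. Tcf7l2, a thalamic transcription factor, differed by -0.60, Lef1 by -0.06, and the glutamate transporter gene Slc17a6 by 0.19. Rora, the closest relative of Rorb, also strongly expressed in the thalamus, differed by 0.07 on its brightest probe set, but its 4 probe sets had a mean of -0.16 ± 0.33 (SD). The part of thalamic tissue in the Rorb difference was not tested.

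As Rorb showed the largest difference of the 7 genes on its brightest probe set, the sequence around its annotated starts is given, from RefSeq on mouse assembly GRCm38.p6, each running from 250 bases before to 50 bases after the start. Capitals mark the motif CCAAT on either strand, which occurs once, 88 bases before the first start.
Rorb start at chr19:19111147-19111446, minus strand: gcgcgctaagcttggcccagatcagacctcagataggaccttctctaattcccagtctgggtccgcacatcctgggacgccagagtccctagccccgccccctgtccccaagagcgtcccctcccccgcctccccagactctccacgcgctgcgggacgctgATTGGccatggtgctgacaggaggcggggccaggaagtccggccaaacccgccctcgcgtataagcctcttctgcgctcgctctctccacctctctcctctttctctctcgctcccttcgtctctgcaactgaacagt
Rorb start at chr19:19001068-19001367, minus strand: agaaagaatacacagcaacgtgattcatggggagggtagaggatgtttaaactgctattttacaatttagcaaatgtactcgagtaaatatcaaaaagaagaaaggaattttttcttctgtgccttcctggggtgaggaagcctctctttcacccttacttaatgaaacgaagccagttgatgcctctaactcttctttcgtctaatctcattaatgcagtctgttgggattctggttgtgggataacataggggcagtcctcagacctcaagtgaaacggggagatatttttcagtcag
Of the 8 genes 6 had promoters in the RefSeq table, with 10 starts in all, while Pou3f1 and Bhlhe22 had none there. None of the 10 windows held a CArG box, the motif that SRF binds, searched on both strands, where 1.63% of all 32851 windows of that length did. The half-site of ROR receptors, AGGTCA, was in 2 of the 10, both of Mef2c, and in 16.3% of all windows. CCAAT was in 5 of the 10, those of Pou3f3, Pou3f2, Rorb and Mef2c, and in 37.4% of all windows. These motifs do not overlap in the windows shown, a match is not a bound site, and windows of a gene with several starts are counted separately.

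Cux1 and Cux2 encode homeodomain proteins with cut repeats that mark layers 2 to 4 and shape dendrites and spines of their neurons. The Cux2 probe set 1447500_at had a signal of 1912.6 in the DKO-labelled pool and 1807.9 in the control-labelled pool. Probe set 1450181_at had 375.9 in the DKO-labelled pool and 363.9 in the control-labelled pool, and 1447821_at had 311.7 in the DKO-labelled pool and 295.3 in the control-labelled pool. All 3 were higher in the DKO-labelled pool by small amounts, with a mean of 0.06 ± 0.02 (SD, 3 probe sets), and remained higher after quantile normalization and loess centring. For scale, 60.8% of all measured genes differed by at least as much as the brightest Cux2 probe set.

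The probe sets of Cux1 went both ways. The brightest, 1451435_at, had 1356 in the DKO-labelled pool and 1206 in the control-labelled pool, higher by 0.17, and 1441956_s_at had 471.4 in the DKO-labelled pool and 416.1 in the control-labelled pool, higher by 0.18. The other 6 were lower, led by 1424668_a_at with 315.9 in the DKO-labelled pool and 433.4 in the control-labelled pool, a difference of -0.46. Next came 1437686_x_at with 191.3 in the DKO-labelled pool and 252.8 in the control-labelled pool, a difference of -0.41, close to the floor. Probe sets 1424667_a_at and 1425611_a_at both differed by -0.15, with 751.7 and 302.3 in the DKO-labelled pool against 832.5 and 334.9 in the control-labelled pool. The smallest differences were -0.11 for 1437431_at, with 247.3 in the DKO-labelled pool and 265.9 in the control-labelled pool, and -0.04 for 1434683_at, with 697.4 in the DKO-labelled pool and 713.4 in the control-labelled pool. Over the 8 the mean was -0.12 ± 0.23 (SD), opposite in sign to the brightest, and it was -0.09 after quantile normalization and -0.10 after loess centring. A further probe set, 1425612_at, was under the floor with 40.9 in the DKO-labelled pool and 48.7 in the control-labelled pool.

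The Cux1 locus is known to make both the full homeodomain protein and CASP, a Golgi protein that lacks the homeodomain, and the sources used here do not say which probe set reads which transcript. Of the 5 Cux1 probe sets whose suffix marks probes shared between transcripts or genes, 4 were lower and 1 higher. Of the 3 without such a suffix 2 were lower and 1 higher. The 3 probe sets annotated to one and the same source transcript differed by 0.17, -0.15 and -0.46.

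**Figure D2:**
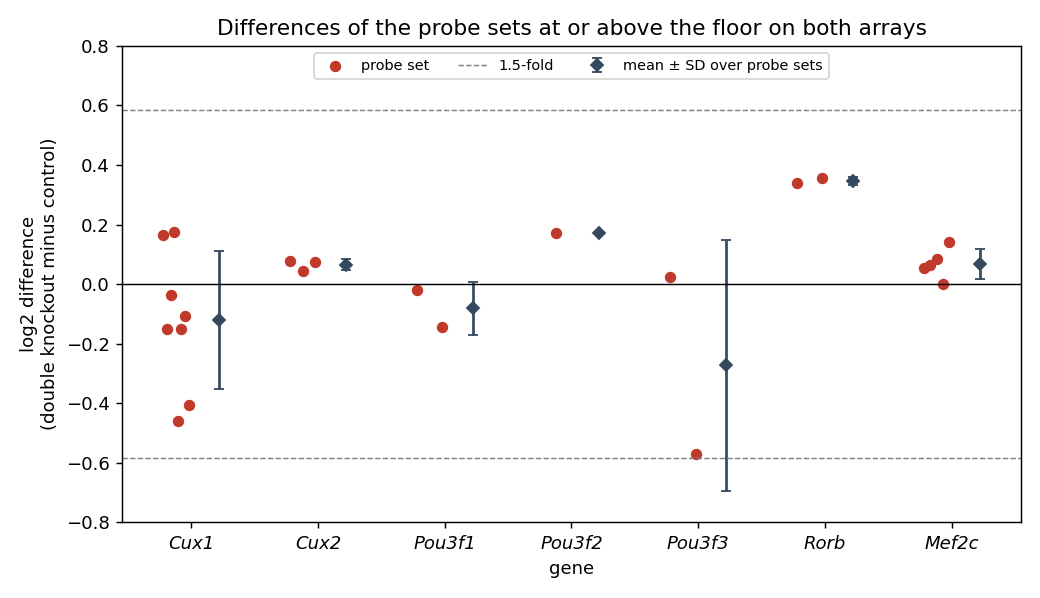
Log2 difference (double knockout minus control) of each usable probe set (red points), by gene, with the mean ± SD over a gene's probe sets (diamonds; no SD for Pou3f2, with 1 probe set) and dashed lines at 1.5-fold. The probe sets of Rorb lie together at 0.34 and 0.36 and those of Cux2 and Mef2c just above 0, while those of Cux1 run from -0.46 to 0.18 and the pair of Pou3f3 stands apart.

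Pou3f1, Pou3f2 and Pou3f3 are POU-domain factors of class 3, also called Oct6, Brn2 and Brn1, and in mice the last pair together are needed for the production and migration of upper-layer neurons. Pou3f2 had 1 usable probe set, 1453478_at, with a signal of 380.7 in the DKO-labelled pool and 336.9 in the control-labelled pool, higher by 0.17. Of all measured genes 29.2% differed by at least as much. Its other probe sets were under the floor on both arrays, with 25.2 in the DKO-labelled pool and 27.6 in the control-labelled pool for 1450831_at, and 92.9 in the DKO-labelled pool and 69.3 in the control-labelled pool for 1457734_at.

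The 2 single-gene probe sets of Pou3f3 gave differences far apart. The bright one, 1435197_at, had 2874.8 in the DKO-labelled pool and 2818.5 in the control-labelled pool, a difference of 0.02 that turned to -0.00066 after quantile normalization and to -0.01 after loess centring. The dim one, 1422331_at, had 195.2 in the DKO-labelled pool and 289.1 in the control-labelled pool, a difference of -0.57, which 2.64% of the dimmest tertile of probe sets reached. The mean of the pair was -0.27 ± 0.42 (SD, 2 probe sets).

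Pou3f1, best known for its part in myelination by Schwann cells and also expressed in cortical projection neurons, had 2321.2 in the DKO-labelled pool and 2345.7 in the control-labelled pool on 1460038_at. Its dimmer probe set, 1422068_at, had 592.2 in the DKO-labelled pool and 653.0 in the control-labelled pool. The differences were -0.02 and -0.14, with a mean of -0.08 ± 0.09 (SD, 2 probe sets), and both stayed negative after quantile normalization and loess centring. Of all measured genes 89.8% differed by at least as much as the brighter one. Pou3f1 was the only one of the 7 genes lower on its brightest probe set, apart from Pou3f3 after quantile normalization or loess centring. Markers of the oligodendrocyte lineage, which also expresses POU factors of this class, were lower in 7 of 9 measured cases. Their median was -0.25, or -0.12 by the mean over probe sets. The lowest were Mobp at -0.97, Mag at -0.71, Mbp at -0.43 and Cnp at -0.32, while Olig1 and Olig2 differed by 0.04 and -0.05. Mbp had 7285.9 in the DKO-labelled pool and 9808.6 in the control-labelled pool. The summed signal of these markers was 19198 in the DKO-labelled pool and 22462 in the control-labelled pool. Their part in the Pou3f1 value was not tested.

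Mef2c encodes a MADS-box factor that in cortical neurons answers to activity and regulates the number of synapses. Its probe set 1424852_at had a signal of 8751.8 in the DKO-labelled pool and 8414 in the control-labelled pool, and 1421027_a_at had 7620.8 in the DKO-labelled pool and 7266.4 in the control-labelled pool. Probe set 1451506_at had 6860.8 in the DKO-labelled pool and 6456.5 in the control-labelled pool, and 1451507_at had 6290.2 in the DKO-labelled pool and 6268.7 in the control-labelled pool. The last, 1421028_a_at, had 2678.3 in the DKO-labelled pool and 2423.9 in the control-labelled pool. The 5 probe sets were all higher in the DKO-labelled pool, by 0.0012 to 0.14, and averaged 0.07 ± 0.05 (SD). Of them 3 are annotated to the same source sequence. After quantile normalization or loess centring 4 of them were higher and 1451507_at was lower, by 0.02 each time. Of the brightest tertile of all probe sets, 64.2% differed by as much as 1424852_at.

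Mef2c is also expressed by microglia and endothelial cells. Of the microglia markers 5 of 9 measured were higher and 4 lower, or 4 higher and 5 lower by the mean over probe sets, and they had a summed signal of 7625 in the DKO-labelled pool and 7152 in the control-labelled pool; C1qc differed by 0.46, C1qb by 0.37, Tyrobp by 0.33 and P2ry12 by -0.37. Of 8 endothelial markers 3 were higher and 5 lower, with a summed signal of 4680 in the DKO-labelled pool and 4666 in the control-labelled pool; Tek differed by 0.31, Pecam1 by -0.22, Cdh5 by 0.16 and Esam by -0.14. The part of these cells in the Mef2c values was not tested.

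Of the 6 genes with 2 or more usable probe sets, 4 had them all on the same side, namely Cux2, Pou3f1, Rorb and Mef2c. Over the array 43.1% of the 4858 such genes did, a share that depends on how many probe sets a gene has. The SD between probe sets of the same gene, pooled over those genes, was 0.18, and the brightest probe sets of all 7 genes but Rorb differed by less than this. That SD describes how probe sets of a gene differ, not how arrays or animals do. The spread of differences was wider among dim probe sets, with an SD of 0.24 in the dimmest tertile and 0.14 in the brightest. The brightest Cux1 probe set, at 0.17, and that of Rorb, both in the brightest tertile, differed by more than 0.14.

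**Figure D3:**
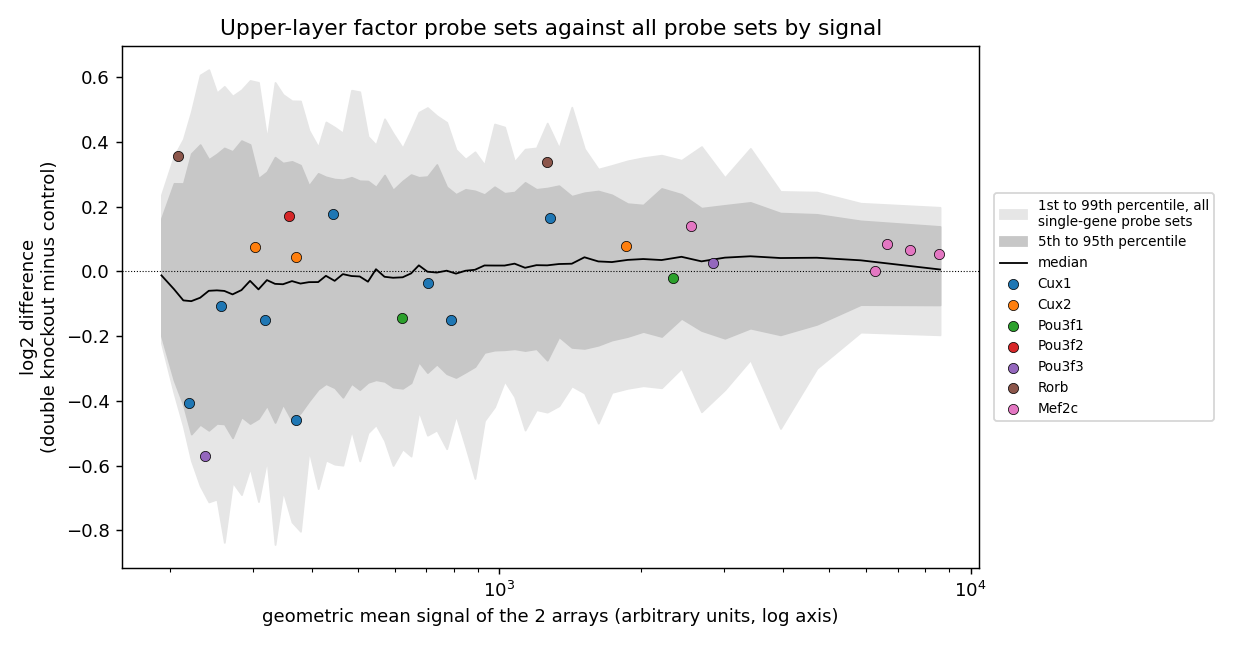
Log2 difference (double knockout minus control) of the 23 probe sets against the geometric mean of both signals (arbitrary units, log axis), over the central range of all 18877 usable single-gene probe sets in bins of equal number by signal. The Rorb probe sets, bright and dim, lie above the 95th percentile of their bins, and the dim Pou3f3 probe set lies below the 5th. The band narrows as the signal grows, and its median is mostly negative among dim probe sets and positive among bright ones.

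The direction of the rest of the upper-layer programme depended on the choice of probe set. Of 13 measured further upper-layer genes 7 were higher and 6 lower by the brightest probe set, and by the mean over probe sets 2 of 12 were higher and 10 lower (median -0.04). By the brightest probe set the median was 0.01, which turned to -0.01 after quantile normalization or loess centring, and none of the 12 usable genes passed 1.5-fold. Inhba, the activin subunit gene, had a signal of 313.1 in the DKO-labelled pool and 389.2 in the control-labelled pool, a difference of -0.32. The ligand gene Kitl differed by 0.13, Btbd3, which orients dendrites, by 0.11 and Lmo4, a LIM-only cofactor, by -0.12. The means over probe sets were -0.02 ± 0.14 for Kitl (SD, 3 probe sets) and 0.01 ± 0.15 for Btbd3 (SD, 2 probe sets).

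Deep-layer genes, which mark the earlier-born neurons beneath, had a median of 0.07 with 9 of 15 higher and 6 lower, or -0.04 with 7 higher and 8 lower by the mean over probe sets. Nr4a2 differed by 0.25, Bcl11b by 0.18, Foxp2 by -0.20 and Syt6, with 1 usable probe set, by -0.30. The means were 0.10 ± 0.12 for Nr4a2, -0.06 ± 0.26 for Bcl11b and -0.29 ± 0.25 for Foxp2 (SD, 4 probe sets each). By the brightest probe set, none of the list passed 1.5-fold.

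Genes of the precursors of projection neurons had 4 of 9 measured members higher and 5 lower, with a median of -0.0014, or 0.0024 without centring and -0.03 by the mean over probe sets, and none of the 7 usable genes passed 1.5-fold. The lowest was Sstr2, a somatostatin receptor gene, with 780.7 in the DKO-labelled pool and 1114.5 in the control-labelled pool, a difference of -0.52. Insm1 and Btg2, which promote the making and the last divisions of these progenitors, differed by -0.41 and -0.20, with -0.21 ± 0.03 (SD, 2 probe sets) as the mean for Btg2. Neurod2, a factor of postmitotic neurons, differed by 0.06 on its brightest probe set and by -0.03 ± 0.12 (SD, 2 probe sets) on average.

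None of the 8 relatives of the 7 factors and none of the 6 partners and reported targets with a usable brightest probe set passed 1.5-fold. Of 25 family relatives 9 were measured, 6 higher and 3 lower, with a median of 0.02 that turned to -0.0039 after quantile normalization and to -0.01 after loess centring. By the mean over probe sets 4 were higher and 5 lower (median -0.04). Pou3f4, the fourth gene of POU class 3, had 195.3 in the DKO-labelled pool and 188.5 in the control-labelled pool, a difference of 0.05. Pou2f2, a POU factor of another class, had 176.4 in the DKO-labelled pool, under the floor, and 266.6 in the control-labelled pool on its brightest probe set, at least 1.49-fold lower, while its 1 usable probe set differed by -0.18. The MEF2 genes Mef2a and Mef2d differed by 0.12 and 0.02 on their brightest probe sets, with means of -0.13 ± 0.23 (SD, 4 probe sets) and -0.04 ± 0.10 (SD, 3 probe sets). Satb1 differed by -0.12, while its 3 probe sets averaged 0.03 ± 0.15 (SD), and Mef2b and Bhlhe23, the closest relative of Bhlhe22, were under the floor. Prdm8, the partner with which Bhlhe22 represses Cdh11, had 1574.1 in the DKO-labelled pool and 1479.9 in the control-labelled pool, a difference of 0.09. Among partners and reported targets 4 of 7 measured were higher and 3 lower by the brightest probe set, and 2 of 6 higher and 4 lower by the mean over probe sets (median -0.10), with Dll1 at 0.13, Homer1 at -0.11 and Nr4a1 at -0.10. Arc, chosen after its values were seen, had 159.1 in the DKO-labelled pool, under the floor, and 245.5 in the control-labelled pool, at least 1.37-fold lower.

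Markers of other cells differed in both directions. The meningeal list was higher in 8 of 8 genes, with a median of 0.37 and a summed signal of 7065 in the DKO-labelled pool and 5262 in the control-labelled pool. Striatal markers were lower in 8 of 9 measured, with a median of -0.31 and a summed signal of 13638 in the DKO-labelled pool and 14901 in the control-labelled pool. Interneuron markers had a median of 0.11, astrocyte markers 0.07 and cortical projection neuron markers 0.09, the last with 7 of 8 higher. By the mean over probe sets these medians were 0.04, 0.10 and 0.07. The meningeal median was then 0.25 and the striatal median -0.35. Past 1.5-fold by the brightest probe set were Dlx1 at 1.56-fold and Gfap at 1.51-fold among interneuron and astrocyte markers, and Aldh1a2 at 1.60-fold and Igf2, at 0.59 on the log2 scale, among meningeal ones, each higher. Mag, Mobp and Tcf7l2 of the oligodendrocyte and thalamic lists were lower, by 1.63-fold, 1.96-fold and 1.52-fold. Of the projection neuron list Dcx, the microtubule protein of migrating neurons, differed by 0.43, Emx1 by 0.17, Tbr1 by 0.14 and the glutamate transporter gene Slc17a7 by -0.55. The part of these lists in the values of the upper-layer factors was not tested.

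**Figure D4:**
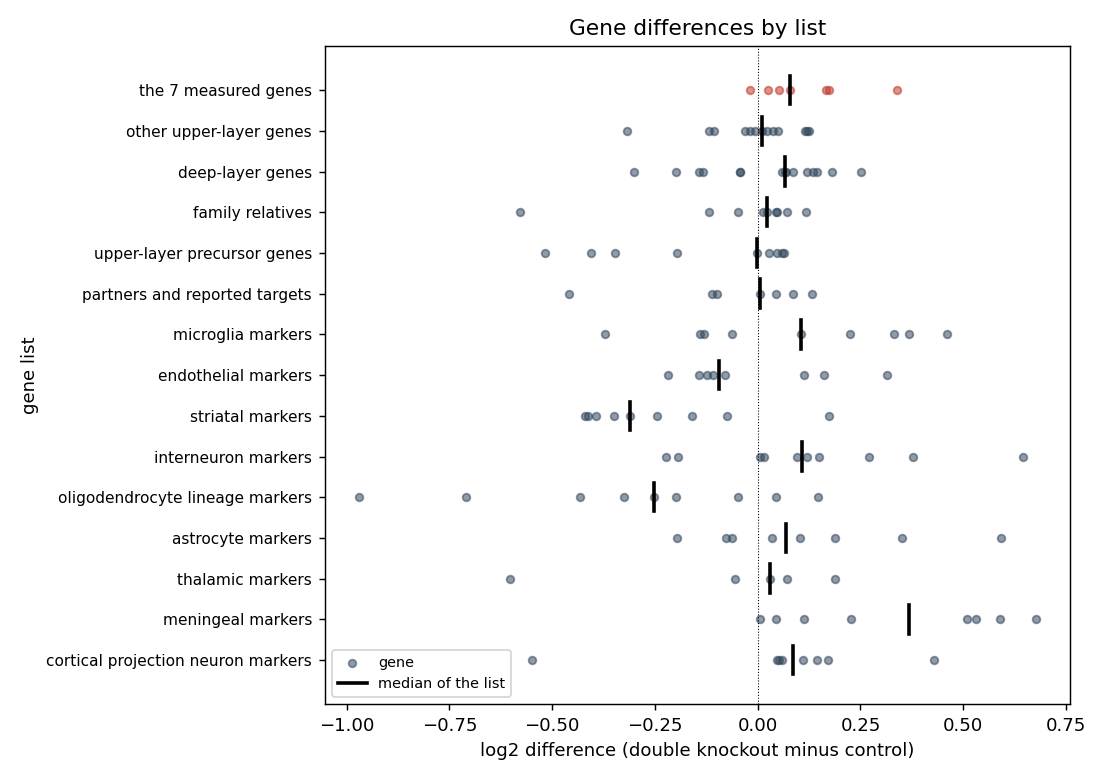
Log2 difference (double knockout minus control) of each measured gene by list, with the 7 upper-layer factors in red and the median of each list as a black bar. The factors lie between -0.02 and 0.34, while meningeal genes lie above 0 and all striatal genes but 1 below 0.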

How the data were processed

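RNA of 3 animals a pool, from 6 ug of total RNA, was read on 1 Affymetrix array per pool, at postnatal day 0 per the labels. Each deposited value is the intensity of a probe set. Per the submitters' processing notes, the authors used MAS5; its version and scaling target are not given in these sources. Trimmed by 2% at either end, the signals averaged 500.002 on each array.

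Probe sets were named from a table of platform annotation, with Entrez identifiers matched to RefSeq genes (GRCm38.p6, used for names) for 99.4% of the 34945 probe sets naming 1 gene. Probe sets naming several genes or none gave no gene value. Signals were centred by a shift of 0.0037 log2, the median difference of bright probe sets, set to the floor of 178.9 where lower, and taken to log2, with numpy 2.4.6, pandas 2.3.3, statsmodels 0.14.6 and Python 3.11.15. A gene's value is that of its brightest probe set by mean log2 signal. Printed signals are as deposited, and summed signals of lists are after centring and flooring.

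With 1 array a group no test was run, no p-value is given, and the number of arrays limits the precision. The genes and the 16 gene lists were chosen with earlier results of these data known. Named are all 8 genes, the targeted genes, family relatives and up to 4 genes of each other list described, those with the largest difference among genes reaching the floor in both pools. Gbx2 and Lhx9, and genes named for passing 1.5-fold outside those 4, were chosen after their values were seen. The calculation was tested on simulated data. The planned protein comparison was not run. The motifs AGGTCA and CCAAT were chosen after the promoters were seen. Alternatives were other scalings, floors, a pseudocount and other choices of probe set.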

Additional observations from a re-analysis of the deposited data

How the results depend on the processing

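No paired analysis was possible because each group is a single array. Under the 9 alternatives the median over the measured genes stayed between 0.04 and 0.08, and 0 of them passed 1.5-fold each time. Several alternatives could not change a gene's value, as they left its brightest probe set and signals as they were. These were the floor at the 25th percentile, no floor and leaving out suffix-marked probe sets. The floor at the 75th percentile only removed Pou3f2, and leaving out centring shifted each value by 0.0037. Rorb stayed between 0.30 and 0.35, Cux2 between 0.04 and 0.08, Mef2c between 0.02 and 0.07, Pou3f2 between 0.12 and 0.22 and Pou3f1 between -0.08 and -0.02. Pou3f2 was under the floor when this was set at the 75th percentile. Cux1 turned to -0.12 and Pou3f3 to -0.27 with the mean over probe sets, and Pou3f3 to -0.00066 after quantile normalization and -0.01 after loess centring. Of 215 values under an alternative, 3 moved by more than the pooled SD between probe sets of 0.18, those of Cux1 and Pou3f3 with the mean over probe sets and the median of the targeted genes, at -0.23 with the floor at the 75th percentile. These moves follow from the settings themselves. The means of Cux1 and Pou3f3 take in their dimmer probe sets, most of which were lower. With the floor at 595.9, Srf was under it on both arrays. Mrtfa, with 262.4 in the DKO-labelled pool and 601.6 in the control-labelled pool, was set to that floor in the DKO-labelled pool. Why probe sets of the same gene differ was not tested. Low signals limit what can be said of the second probe sets of Pou3f3 and Rorb, each near 178.9 in 1 pool. They also limit what can be said of Pou3f2. Its only usable probe set, with 380.7 in the DKO-labelled pool and 336.9 in the control-labelled pool, is in the dimmest tertile.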

Other observations

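A further probe set, 1429857_at, is annotated to both Pou3f3 and the neighbouring transcript 2900092D14Rik and entered no gene value. Its signal was 491.1 in the DKO-labelled pool and 546.3 in the control-labelled pool, a difference of -0.16. The single-gene probe sets of Pou3f3 stood at 0.02 and -0.57, and both were lower after quantile normalization or loess centring.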
